A study of Mus musculus with 6 samples.

Results

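The expression of 10 genes of the transforming growth factor beta (TGF-beta) pathway was examined in mouse satellite cells, which are the resident stem cells of skeletal muscle. They are the ligands *Tgfb1*, *Tgfb2* and *Tgfb3*, the receptors *Tgfbr1*, *Tgfbr2* and *Tgfbr3*, the SMADs *Smad2*, *Smad3* and *Smad7*, and *Ltbp1*, which encodes a latent TGF-beta binding protein. The 10 genes were taken by symbol from the 54115 genes to which reads could be assigned, and all 10 were among the 17152 genes that passed the filter on low reads. *Tgfb2* was selected on its measured level, which was lower in Pax7KR cells, so its difference between genotypes is described here with no test.

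RNA-sequencing had been performed on 3 Pax7WT and 3 Pax7KR samples of C57BL/6J mice. In the Pax7KR mice, a lysine between the paired domain and the homeodomain of PAX7, the transcription factor that marks satellite cells, is replaced by arginine. The knock-in was made by CRISPR-Cas9 in zygotes and is therefore a germline allele carried by every cell of the animal, not a change limited to satellite cells. Homozygous mice were obtained by intercrossing heterozygotes, and littermates with the wild-type gene (Pax7WT) were the controls. Mice were 6 to 8 weeks old. The cells were sorted from uninjured hindlimb muscle as positive for α7-integrin and CD34 and negative for CD31, CD11b, Sca-1 and CD45, and 15 ng of RNA was used per library.

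TGF-beta ligands are secreted as latent dimers that are held in the extracellular matrix by latent TGF-beta binding proteins until they are activated. An active ligand joins the type II receptor TGFBR2 with the type I receptor TGFBR1, which phosphorylates SMAD2 and SMAD3, and these enter the nucleus with SMAD4 to act on transcription. SMAD7 is an inhibitory SMAD whose gene is itself a target of the pathway, and TGF-beta is known as an inhibitor of myogenic differentiation and as a driver of matrix deposition in muscle.

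A library held from 17822367 to 27908054 estimated reads over all quantified transcripts. *Pax7* stood at 1551 ± 101 CPM (reads of a gene scaled to a common library size) in Pax7WT and at 1502 ± 119 CPM in Pax7KR (mean ± SD, n = 3 each, as for all group values here), and since the mutation is a substitution this level does not check the labels. The summed levels of the markers of satellite cells were 6785 to 7254 CPM in Pax7WT and 7056 to 7325 CPM in Pax7KR. Markers of other cells were also detected, and their sums overlapped between genotypes: 634 to 695 against 638 to 717 CPM for fibro-adipogenic cells, 2419 to 2779 against 2275 to 2487 CPM for smooth muscle cells and pericytes, and 247 to 317 against 282 to 337 CPM for endothelial cells. *Dpt* held most of the first sum (571 to 633 CPM over the 6 libraries), *Notch3* of the second (2052 to 2475 CPM) and *Tek* of the third (184 to 231 CPM). The other markers of these lists were lower, so the sums do not measure the share of other cells. The immune marker sums were 8.05 to 11.5 against 8.61 to 12.7 CPM, with *Adgre1* at 0 reads in 1 library of each genotype. The sums were 63.0 to 71.9 against 48.7 to 71.1 CPM for Schwann and glial cells, 13.9 to 25.5 against 17.1 to 20.3 CPM for tenocytes, and 41.3 to 51.8 against 35.2 to 50.3 CPM for myofibres. Single markers did not overlap in 3 of these lists: *Cd68*, 1 of 6 of the immune list (1.91 to 2.60 against 2.80 to 3.90 CPM), *Ngfr*, 1 of 5 of the Schwann and glial list (24.7 to 32.5 against 15.7 to 23.7 CPM) and *Scx*, 1 of 3 of the tenocyte list (6.77 to 7.61 against 4.78 to 6.76 CPM). In the fibro-adipogenic, smooth muscle and pericyte, endothelial and myofibre lists, of 6, 6, 6 and 5 markers, every marker overlapped. Of all genes tested, 5.14% did not overlap and were higher in Pax7KR, and 5.19% did not overlap and were lower. The part of these markers in the levels of the 10 genes was not tested. No marker of any list was at 0 in all libraries. The sums of 16 immediate early genes, which respond to cell isolation, ran from 20283 to 38921 CPM in Pax7WT and from 29284 to 34121 CPM in Pax7KR.

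The 10 genes differed widely in abundance. Per unit of transcript length, in TPM (length-corrected reads scaled to the same total in each library), the co-receptor gene *Tgfbr3* was the most abundant at 331 ± 23.4 TPM and *Ltbp1* the next at 237 ± 23.6 TPM (mean ± SD over the 6 libraries). They were followed by *Tgfb3* at 81.2 ± 2.88 TPM, *Tgfbr2* at 66.4 ± 3.84 TPM, *Smad2* at 48.5 ± 3.09 TPM, *Smad3* at 47.4 ± 6.18 TPM and *Tgfbr1* at 31.3 ± 2.69 TPM. The lowest were *Tgfb2* at 21.4 ± 3.96 TPM, *Smad7* at 11.99 ± 3.21 TPM and *Tgfb1* at 5.38 ± 1.45 TPM. Of the 9 pairs of neighbours in this order, 8 kept their order in every library, the exception being *Smad2* and *Smad3*. The ranges of levels over the libraries overlapped in 3 pairs of neighbours: *Smad2* with *Smad3*, *Tgfbr1* with *Tgfb2*, and *Tgfb2* with *Smad7*. Among all genes tested, *Tgfbr3* lay at the 98.1 percentile of TPM and *Tgfb1* at the 38.9 percentile.

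**Figure D1:**
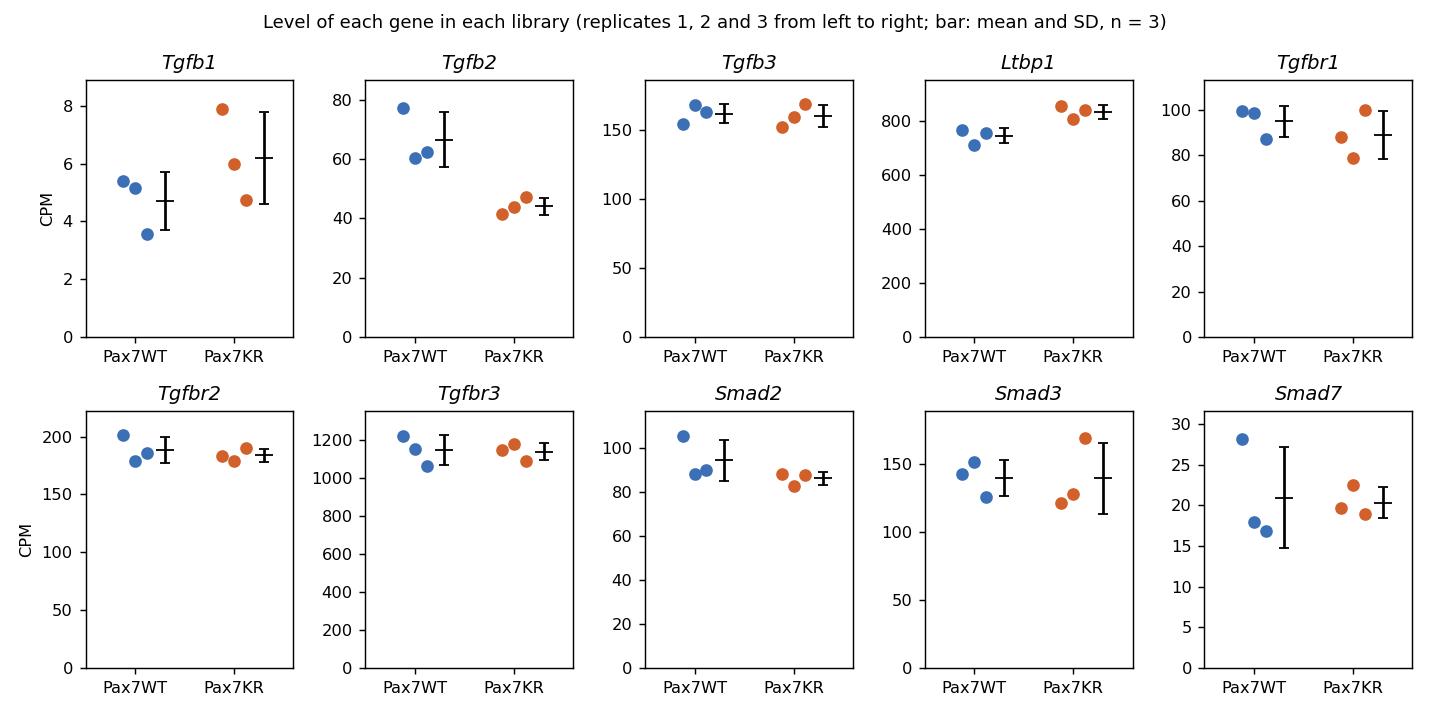
Level of each of the 10 genes in CPM (linear axes starting at 0) in the 3 Pax7WT (blue) and 3 Pax7KR (orange) libraries; points are replicates 1, 2 and 3 from left to right, and bars are the mean ± SD. The *Tgfb2* points of Pax7KR (41.4 to 47.1 CPM) all lie below those of Pax7WT (60.3 to 77.0 CPM), and the *Ltbp1* points of Pax7KR (805 to 853 CPM) above those of Pax7WT (712 to 766 CPM).

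The ligand *Tgfb2* (ENSMUSG00000039239, GRCm38 chromosome 1, 186622792 to 186705989, minus strand) was at 77.0, 60.3 and 62.3 CPM in the 3 Pax7WT libraries and at 41.4, 43.7 and 47.1 CPM in the 3 Pax7KR libraries. The groups did not overlap, and the highest Pax7KR library lay below the lowest Pax7WT library. The group means were 66.6 ± 9.12 and 44.1 ± 2.90 CPM, a log2 fold change of -0.60, or 33.9% less in Pax7KR. Leaving out 1 library at a time gave -0.66 to -0.48. Per length the values were 27.4, 23.6 and 23.1 TPM against 18.6, 19.4 and 16.6 TPM. These levels rested on 946 to 2096 reads per library. In samples of pooled RNA, fewer cells that make a transcript and less of it per cell cannot be told apart.

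*Tgfb2* had 2 transcripts with 5% or more of its reads, and they differ by a coding exon. *Tgfb2-206* contains an additional exon, its exon 2 of 8, which lies on GRCm38 at chr1:186690721-186690804 on the minus strand, is 84 bases long and adds 28 codons. The exon is shown because it separates the 2 forms whose levels follow. Read from the reference genome in the direction of transcription, with the exon in capitals and 15 bases of the adjoining exons in lower case, it is:
Tgfb2 additional exon: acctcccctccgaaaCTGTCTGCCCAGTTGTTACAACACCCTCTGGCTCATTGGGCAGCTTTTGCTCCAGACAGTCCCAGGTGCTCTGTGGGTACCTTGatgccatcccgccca

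The form without the exon, *Tgfb2-201*, was at 22.3, 15.4 and 18.2 TPM in Pax7WT and at 12.3, 13.2 and 14.8 TPM in Pax7KR. The form with the exon was at 5.07, 6.73 and 3.49 TPM in Pax7WT and at 3.01, 2.90 and 1.76 TPM in Pax7KR. For each form, the 3 Pax7KR values lay below the 3 Pax7WT values. The forms are parts of the *Tgfb2* level for which the gene was chosen, so this is not a second observation. The form with the exon took 13.1, 22.2 and 11.2% of the *Tgfb2* reads in Pax7WT and 13.6, 12.5 and 7.30% in Pax7KR, and these shares overlapped. The annotated transcripts also differ in their last exon, of 2815 bases without and 1389 bases with the additional exon, so a share of reads is not the inclusion of this exon alone.

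The 250 bases before the *Tgfb2* start in RefSeq (GRCm38.p6, chr1:186705990-186706239, minus strand) are printed because the level of this gene separated the genotypes. Matches to 3 short motifs, searched on both strands and chosen with these sequences in view, are in capitals: TAAT, the core that homeodomains are known to bind, 83 bases before the start; CACGTG, an E-box, at 51 bases; and TATAAA, known from core promoters, at 31 bases. The matches do not overlap one another. Of 32817 windows of this length in RefSeq promoters, 54.9% hold TAAT, 6.02% CACGTG and 12.4% TATAAA, so a match describes the sequence only.
Tgfb2 promoter: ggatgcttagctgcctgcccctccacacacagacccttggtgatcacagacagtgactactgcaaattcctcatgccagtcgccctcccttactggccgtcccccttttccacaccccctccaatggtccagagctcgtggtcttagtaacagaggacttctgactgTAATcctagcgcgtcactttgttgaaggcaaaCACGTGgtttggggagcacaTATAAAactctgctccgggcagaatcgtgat

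As a description, the 5 genes whose log2 CPM followed that of *Tgfb2* most closely over the 6 libraries were *Hcfc1r1* (Pearson r = 0.998), *Fcf1* (0.983), *Tmem233* (0.981), *Prrx1* (0.976) and *Clic4* (0.975). They were taken from 9520 genes with a mean of 10 CPM or more. The points share their libraries and the genotype groups. Each of the 5 genes was lower in all 3 Pax7KR libraries. This follows from the choice, since *Tgfb2* was itself selected for its lower level in Pax7KR. The levels of the 5 genes are therefore not separate observations of a difference. *Prrx1*, which encodes a homeobox transcription factor of mesenchymal cells, was at 90.6, 78.9 and 85.0 CPM in Pax7WT and at 62.5, 61.8 and 70.3 CPM in Pax7KR.

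*Tgfb3* (ENSMUSG00000021253, chromosome 12, 86056745 to 86079041, minus strand), the most abundant ligand gene, was at 154, 168 and 163 CPM in Pax7WT and at 152, 160 and 169 CPM in Pax7KR. The groups overlapped, with means of 162 ± 6.95 and 160 ± 8.23 CPM. The log2 fold change was -0.01 (SE 0.06, 95% confidence interval -0.15 to 0.12; adjusted p = 0.998 with edgeR's quasi-likelihood test and Benjamini-Hochberg adjustment), an interval of -9.87% to 8.86%. The gene overlaps *Ttll5*, which has 5841 reads over the 6 libraries, on the opposite strand. The library kit keeps the strand, but the strand setting of the quantification is not given in the sources used here, so the reads of the 2 genes may not be fully separated.

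*Tgfb1* (ENSMUSG00000002603, chromosome 7, 25687002 to 25705077, plus strand) was at 5.40, 5.14 and 3.56 CPM in Pax7WT and at 7.87, 5.99 and 4.73 CPM in Pax7KR. The CPM values overlapped, and the gene rested on 73 to 180 reads per library. The log2 fold change was 0.40 (SE 0.24, 95% confidence interval -0.12 to 0.91; edgeR adjusted p = 0.992), so neither no difference nor an 88.5% higher level lay outside the interval. In TPM the groups did not overlap, at 5.12, 4.48 and 3.18 against 7.29, 6.05 and 6.16. Of the 6.16 TPM in Pax7KR replicate 3, 2.33 TPM from 10 reads belonged to *Tgfb1-203*, an annotated transcript with a retained intron. The protein-coding *Tgfb1-201* alone was at 4.76, 4.44 and 3.18 TPM in Pax7WT and at 7.20, 5.39 and 3.76 TPM in Pax7KR, and these values overlapped.

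The summed level of the 3 ligand genes was 109, 110 and 107 TPM in Pax7WT and 106, 108 and 108 TPM in Pax7KR, so the sums overlapped. Within this sum the share of *Tgfb2* was 25.1, 21.4 and 21.5% in Pax7WT and 17.6, 17.9 and 15.4% in Pax7KR. The share of *Tgfb3* was 70.2, 74.5 and 75.5% in Pax7WT and 75.5, 76.5 and 78.9% in Pax7KR. The shares of *Tgfb1* were 4.69, 4.06 and 2.96% against 6.91, 5.59 and 5.71%. The 3 shares sum to 100 by construction, so the lower *Tgfb2* level that chose the gene also sets part of the other shares. From Pax7WT to Pax7KR the mean of *Tgfb2* differed by -6.49 TPM, that of *Tgfb3* by 2.55 TPM and that of *Tgfb1* by 2.24 TPM. In CPM the mean of *Tgfb3* was not higher in Pax7KR (162 in Pax7WT and 160 in Pax7KR). The *Tgfb1* mean of Pax7KR includes the 2.33 TPM of *Tgfb1-203* in replicate 3.

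**Figure D2:**
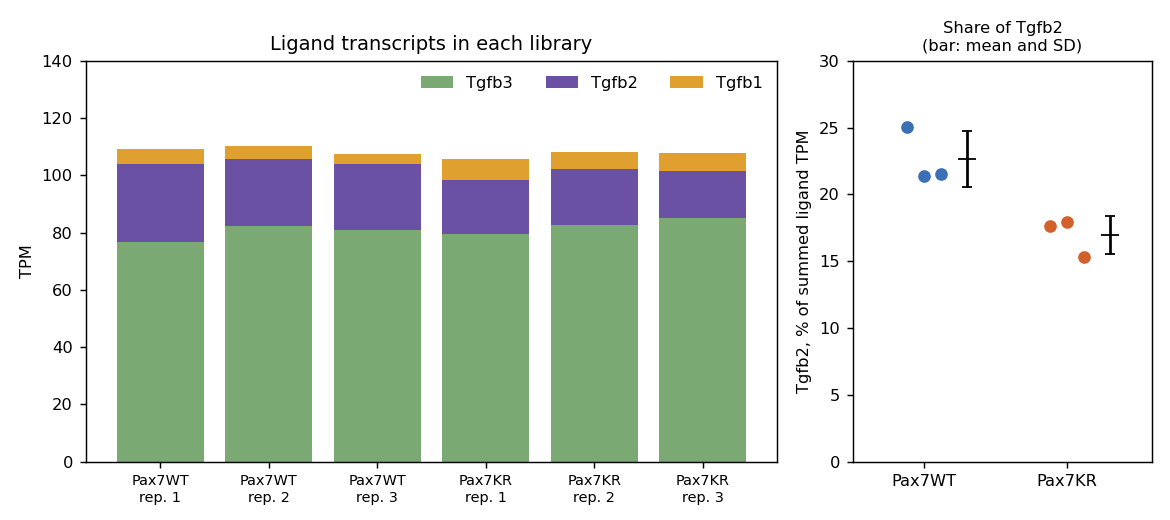
Stacked bars of the TPM of *Tgfb1*, *Tgfb2* and *Tgfb3* in each of the 6 libraries, with the axis starting at 0 (left), and the share of *Tgfb2* in this sum as a percent, with the mean ± SD of each genotype (right). The bars reach 106 to 110 TPM in every library, and the *Tgfb2* segment takes 21.4 to 25.1% of them in Pax7WT and 15.4 to 17.9% in Pax7KR.

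*Ltbp1* (ENSMUSG00000001870, chromosome 17, 75005568 to 75392512, plus strand), whose product tethers latent TGF-beta to the matrix, was at 766, 712 and 756 CPM in Pax7WT and at 853, 805 and 839 CPM in Pax7KR. Every Pax7KR library lay above every Pax7WT library, in CPM and in TPM (223, 206 and 222 against 269, 249 and 253). The means were 744 ± 28.8 and 832 ± 24.96 CPM, a difference of 11.8% (95% confidence interval 1.54 to 23.1%). The log2 fold change of 0.16 (SE 0.06) had an unadjusted p of 0.0264 and did not pass the threshold of 0.1 after adjustment over all genes (edgeR adjusted p = 0.992). It stayed between 0.13 and 0.18 when 1 library at a time was left out.

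*Ltbp1* is transcribed from separate starts into long and short forms. The long form, annotated by 2 transcripts from the upstream start, was at 514, 462 and 512 CPM in Pax7WT and at 582, 541 and 560 CPM in Pax7KR. The short form, annotated by 4 transcripts that begin further downstream, was at 243, 244 and 238 CPM in Pax7WT and at 261, 254 and 268 CPM in Pax7KR. For both forms all Pax7KR values lay above all Pax7WT values, with ratios of the means of 1.13 for the long and 1.08 for the short form (two-sided exact permutation p = 0.1 each, the smallest p that 3 against 3 libraries allow). The forms are parts of the *Ltbp1* level given above, and their reads were divided among transcripts by estimation. They are therefore not further observations of a difference.

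The 250 bases before each *Ltbp1* start in RefSeq (GRCm38.p6, plus strand) are shown because a level was estimated for each form. Start 1 has the window chr17:75005279-75005528 and start 2 the window chr17:75178531-75178780. Capitals mark TAAT or its reverse complement ATTA, found once before start 1, at 89 bases, and 4 times before start 2, at 245, 161, 127 and 62 bases. CACGTG and TATAAA were not found in either window. Of all RefSeq promoter windows, 54.9% hold TAAT, and the share that hold it 4 times is not given here, so these matches describe the sequence only.
Ltbp1 start 1: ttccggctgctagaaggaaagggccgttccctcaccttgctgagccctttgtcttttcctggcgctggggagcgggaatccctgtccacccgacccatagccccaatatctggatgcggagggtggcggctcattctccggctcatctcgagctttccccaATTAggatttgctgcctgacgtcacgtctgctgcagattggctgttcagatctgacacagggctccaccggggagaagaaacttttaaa
Ltbp1 start 2: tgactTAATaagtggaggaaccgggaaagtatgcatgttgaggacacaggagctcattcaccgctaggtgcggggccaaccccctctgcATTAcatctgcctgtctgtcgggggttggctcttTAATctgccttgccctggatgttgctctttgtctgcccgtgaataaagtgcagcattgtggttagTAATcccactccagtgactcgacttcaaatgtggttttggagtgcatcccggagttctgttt

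The RefSeq table matched 6 of the 10 genes, with 8 windows. The windows of *Tgfb1*, *Tgfbr1*, *Tgfbr2* and *Smad3* held none of the 3 motifs. The motifs were chosen with promoter sequences in view, and windows with no TAAT are common (54.9% of all windows hold it). Their absence therefore describes the sequences only. The GC content was 75.2% for *Tgfb1*, 74.8 and 52.8% for starts 1 and 2 of *Tgfbr1*, 58.4% for *Tgfbr2* and 69.2% for *Smad3*. It was 53.6% for *Tgfb2* and 56.8 and 50.8% for starts 1 and 2 of *Ltbp1*. The median over all windows was 52.4%.

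Of the other latent TGF-beta binding proteins, *Ltbp4*, the most abundant, was at 2103 ± 37.0 CPM in Pax7WT and 2109 ± 69.7 CPM in Pax7KR (log2 fold change 0.004, SE 0.07), and *Ltbp3* at 396 ± 13.2 and 397 ± 7.0 CPM. *Ltbp2* had 5 to 52 reads per library, and its interval of -67.5 to 258% is too wide to call its levels alike. *Ltbp1* accounted for 17.3, 16.1 and 17.3% of the summed TPM of the 4 genes in Pax7WT and for 19.2, 18.1 and 19.1% in Pax7KR. The level of *Ltbp1* relative to *Tgfb3* in TPM was 2.72 ± 0.20 in Pax7WT and 3.12 ± 0.22 in Pax7KR.

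The receptor genes showed smaller differences. *Tgfbr1* (ENSMUSG00000007613, chromosome 4, 47353222 to 47414931, plus strand), the type I receptor, was at 99.4, 98.6 and 87.3 CPM in Pax7WT and at 88.0, 79.0 and 100.1 CPM in Pax7KR, and the groups overlapped (log2 fold change -0.10, SE 0.09, 95% confidence interval -0.28 to 0.09). *Tgfbr2* (ENSMUSG00000032440, chromosome 9, 116084293 to 116175360, minus strand), the type II receptor, was at 201, 179 and 186 CPM in Pax7WT and at 183, 179 and 190 CPM in Pax7KR. Its groups overlapped too (log2 fold change -0.04, SE 0.06, 95% confidence interval -0.17 to 0.10). *Tgfbr3* (ENSMUSG00000029287, chromosome 5, 107106570 to 107289629, minus strand), or betaglycan, a co-receptor that presents ligand and is known to be needed in particular for TGF-beta 2, was at 1221, 1152 and 1065 CPM in Pax7WT and at 1146, 1179 and 1091 CPM in Pax7KR. Its Pax7KR values lay within the Pax7WT range (log2 fold change -0.01, SE 0.07, 95% confidence interval -0.17 to 0.15). The edgeR adjusted p was 0.998 for each receptor gene. Within the span of *Tgfbr3*, 3 annotated genes of unknown status lie on the same strand and hold 424 to 830 reads over the 6 libraries, beside 20409 to 33215 reads of *Tgfbr3* in each library. *Tgfbr3* made up 75.7 to 79.5% of the summed TPM of the 3 receptor genes in every library, 4.59 to 5.46 times the TPM of *Tgfbr2*.

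The reads of *Tgfbr2* were split between 2 transcripts in near equal shares. Per length, *Tgfbr2-201* was at 47.99 ± 5.81 TPM in Pax7WT and 46.9 ± 0.44 TPM in Pax7KR, and *Tgfbr2-202* at 18.4 ± 0.37 and 19.5 ± 0.67 TPM. *Tgfbr2-202* contains an additional coding exon, its exon 2 of 8, at chr9:116158271-116158345 on the minus strand of GRCm38, 75 bases or 25 codons long. It is shown, in capitals between 15 bases of the adjoining exons, because it separates these forms.
Tgfbr2 additional exon: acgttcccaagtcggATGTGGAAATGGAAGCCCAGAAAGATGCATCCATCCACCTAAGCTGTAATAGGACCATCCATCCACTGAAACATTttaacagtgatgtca
The form with the exon took 48.9 ± 2.64% of the *Tgfbr2* reads in Pax7WT and 50.7 ± 0.89% in Pax7KR (two-sided exact permutation p = 0.4). The last exons of the transcripts differ as well, with 1629 bases without and 6265 bases with the additional exon, so these shares also reflect the end of the transcript.

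Among the SMADs, *Smad2* (ENSMUSG00000024563, chromosome 18, 76241580 to 76310963, plus strand) was at 105, 88.1 and 89.9 CPM in Pax7WT and at 88.0, 82.8 and 87.8 CPM in Pax7KR. The groups just failed to overlap in CPM, with means of 94.4 ± 9.43 and 86.2 ± 2.92 CPM, and overlapped in TPM (53.0, 43.6 and 49.3 against 49.0, 46.9 and 49.1). The log2 fold change was -0.13 (SE 0.08, 95% confidence interval -0.29 to 0.03; edgeR adjusted p = 0.992). *Smad3* (ENSMUSG00000032402, chromosome 9, 63646767 to 63757994, minus strand) was at 143, 152 and 126 CPM in Pax7WT and at 122, 128 and 170 CPM in Pax7KR. Pax7KR replicate 3 was the highest of the 6 libraries and Pax7KR replicate 1 the lowest. The group means were 140.3 ± 13.2 and 139.8 ± 26.1 CPM (log2 fold change -0.005, SE 0.14, 95% confidence interval -0.33 to 0.32; edgeR adjusted p = 0.998), and the log2 fold change ran from -0.17 to 0.09 when 1 library was left out.

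*Smad7* (ENSMUSG00000025880, chromosome 18, 75367529 to 75395935, plus strand), the inhibitory SMAD, lies 846 kb from *Smad2*. It was at 28.1, 17.9 and 16.8 CPM in Pax7WT and at 19.6, 22.5 and 18.9 CPM in Pax7KR. Pax7WT replicate 1 was the highest of all libraries, and the other 2 Pax7WT libraries were the lowest. The log2 fold change was -0.05 (SE 0.19, 95% confidence interval -0.49 to 0.39; edgeR adjusted p = 0.998), and without Pax7WT replicate 1 it was 0.23. This replicate also had the highest sum of immediate early genes, 38921 CPM, against 20283 CPM in Pax7WT replicate 2. The levels did not run in parallel, as Pax7WT replicate 3 had a sum of 36289 CPM and the lowest *Smad7* level, 16.8 CPM. The part of these genes in the *Smad7* level was not tested.

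**Figure D3:**
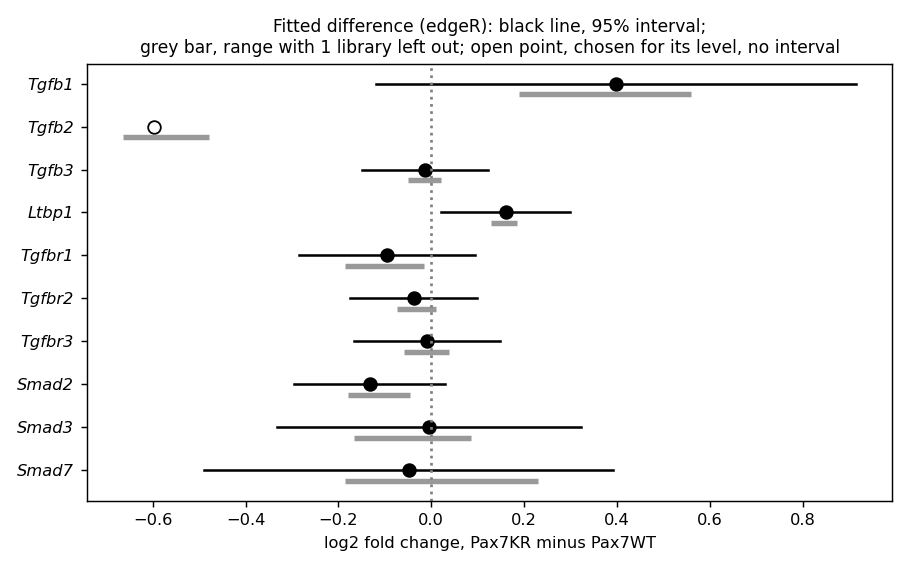
Log2 fold change (Pax7KR minus Pax7WT) of each of the 10 genes from the fit across all 17152 genes, with 95% confidence intervals (black), and the range of values (grey) when 1 library at a time is left out. *Tgfb2* (open point), which was chosen for its difference, has no interval. The interval of *Ltbp1* lies above 0 (0.02 to 0.30) and those of the other 8 genes include 0.

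Of the 9 genes other than *Tgfb2*, edgeR called 0 at an adjusted p under 0.1, where 0 of all 17152 genes (0%) were called. At an unadjusted p under 0.05, 1 of the 9 was higher (*Ltbp1*) and 0 were lower, beside 2.26% and 2.43% of all genes. DESeq2 called 0 of the 9 and 30 of all genes (0.175%). The groups did not overlap in CPM for 1 higher gene (*Ltbp1*) and 1 lower gene (*Smad2*), beside 5.14% and 5.19% of all genes. The median log2 fold change of the 9 genes was -0.01 and that of all genes tested -0.004. *Tgfb1* and *Smad7*, with the fewest reads, had the widest intervals, -7.93 to 88.5% and -28.8 to 31.2%, so differences of that size were not excluded at this depth and spread.

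Transcript use was compared for the 13 transcripts that held from 5 to 95% of the reads of their gene, which belonged to 6 of the 10 genes. For 2 of them the shares did not overlap between genotypes, and 9.43% of the 27702 such transcripts of all tested genes did not overlap. *Smad2-202* held 6.11, 5.72 and 6.10% of the *Smad2* reads in Pax7WT and 8.01, 8.23 and 9.44% in Pax7KR (two-sided exact permutation p = 0.1, the smallest possible). This transcript lacks exon 3 of the gene, of 90 bases and 30 codons, which in the SMAD2 protein lies in the MH1 domain and is known to hinder DNA binding. It was estimated from 89 to 175 reads per library. Its annotated start and end also differ from those of *Smad2-201* and *Smad2-205*, so its share of reads is not the skipping of exon 3 alone. *Ltbp1-210* held 13.0, 10.4 and 9.85% of the *Ltbp1* reads in Pax7WT and 13.8, 16.5 and 13.8% in Pax7KR (exact permutation p = 0.1). For the transcripts with the largest share of reads, which is not corrected for length, the shares overlapped, with *Ltbp1-201* at 55.5 ± 2.05 and 52.7 ± 1.89% (exact permutation p = 0.2) and *Smad2-205* at 54.7 ± 4.09 and 56.8 ± 1.41% (exact permutation p = 0.4).

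**Figure D4:**
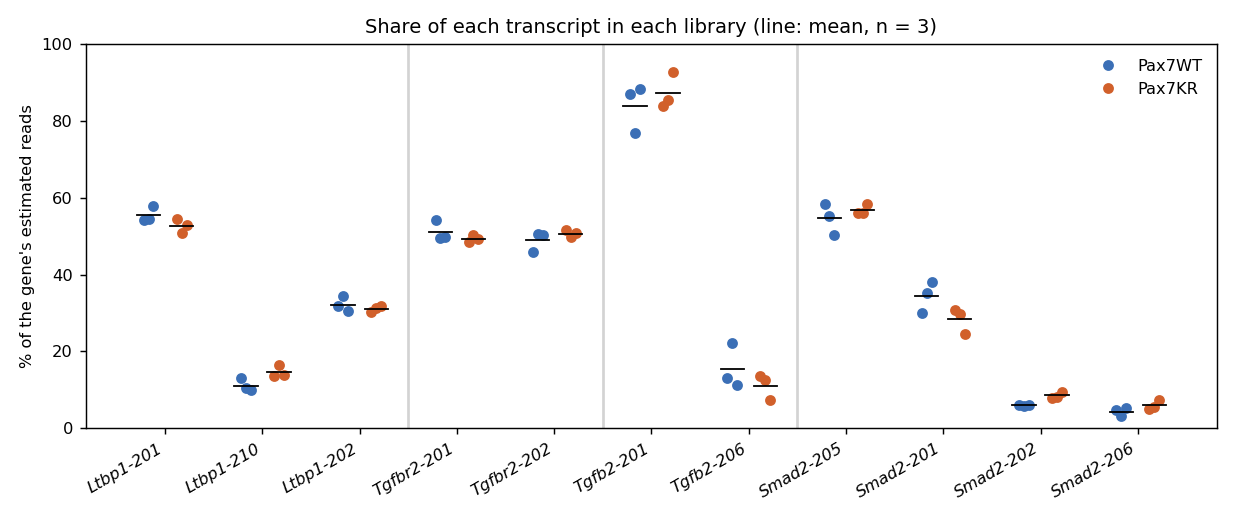
Share of the reads of a gene (percent) assigned to each of 11 transcripts, for the 4 genes with more than 1 transcript in the range of 5 to 95%; points are the 3 Pax7WT (blue) and 3 Pax7KR (orange) libraries and lines are group means. The groups separate for *Smad2-202* (5.72 to 6.11% against 8.01 to 9.44%) and *Ltbp1-210* (9.85 to 13.0% against 13.8 to 16.5%).

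The wider pathway was examined with 65 further genes sorted by role, of which 64 were tested and 1, *Foxh1*, had 0 reads in every library. Of these, 21 were higher and 43 lower in Pax7KR by the sign of the log2 fold change alone, with a median of -0.04, and of all genes tested 8399 were higher and 8753 lower. edgeR called 0 of them, while DESeq2 and DESeq2 with transcript length as an offset (which calls 0.262% of all genes) each called 1, *Fn1*. At an unadjusted p under 0.05, 2 were higher (*Fn1* and *Pmepa1*) and 1 was lower (*Klf10*), where 2.26% and 2.43% of all genes were. In CPM, groups did not overlap for 3 higher genes (*Fn1*, *Nrros* and *Acvr1c*) and 2 lower genes (*Gdf11* and *Fkbp1a*), where 5.14% and 5.19% of all genes did not overlap. Of these genes, only *Fn1* did not overlap in TPM either. *Acvr1c* had 6 to 20 reads per library, and its mean in TPM ran the other way (0.41 in Pax7WT and 0.15 in Pax7KR). In none of the roles did edgeR call a gene, so the values of each role are given without a direction.

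Among the genes of the latent complex and its activation, *Fbn1*, which encodes the microfibril protein fibrillin-1, was at 385 ± 27.9 CPM in Pax7WT and 350 ± 14.8 CPM in Pax7KR (log2 fold change -0.14, SE 0.07; edgeR adjusted p = 0.992). *Nrros*, whose product anchors latent TGF-beta at the surface of myeloid cells, was at 0.51 ± 0.25 and 0.98 ± 0.26 CPM, from 5 to 29 reads per library. *Itgb8*, an integrin subunit that activates latent TGF-beta, was at 17.6 ± 0.12 and 16.1 ± 1.98 CPM.

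Of the further genes listed with the receptors, not all of which encode receptors, *Eng*, or endoglin, a co-receptor best known from endothelial cells, was at 24.9 ± 4.04 and 28.9 ± 3.11 CPM. *Tgfbrap1* was at 73.7 ± 3.90 and 69.3 ± 2.59 CPM, and *Acvrl1*, a type I receptor, at 30.3 ± 0.68 and 29.3 ± 3.56 CPM. In the activin and myostatin branch, *Inhbb*, the activin beta B subunit, was at 149 ± 19.6 and 129 ± 11.7 CPM (log2 fold change -0.20, SE 0.10; edgeR adjusted p = 0.992). The activin receptor *Acvr2a* was at 92.6 ± 11.1 and 84.5 ± 4.95 CPM and *Fstl1* at 301 ± 18.2 and 287 ± 24.4 CPM. *Mstn*, or myostatin, was near the lower limit in both, at 0.87 ± 0.57 and 0.53 ± 0.19 CPM.

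The common mediator *Smad4* was at 122 ± 5.27 CPM in Pax7WT and 123 ± 2.24 CPM in Pax7KR. The inhibitory *Smad6* was at 25.5 ± 4.27 and 22.6 ± 4.01 CPM, *Zfyve9*, the receptor anchor of SMAD2 and SMAD3, at 104 ± 9.51 and 99.9 ± 2.80 CPM, and *Trim33* at 75.9 ± 4.06 and 74.2 ± 5.98 CPM. Among the negative regulators, *Pmepa1*, an inhibitor that is itself a target of the pathway, was at 321, 373 and 324 CPM in Pax7WT and at 365, 369 and 414 CPM in Pax7KR. Its groups overlapped in CPM (log2 fold change 0.17, SE 0.08; unadjusted p = 0.0388 and adjusted p = 0.992 with edgeR). In TPM they did not overlap, at 181, 200 and 189 in Pax7WT against 225, 223 and 223 in Pax7KR. The co-repressor *Ski* was at 350 ± 31.4 and 349 ± 7.55 CPM, the ubiquitin ligase *Nedd4l* at 304 ± 21.3 and 300.2 ± 20.7 CPM, *Fkbp1a* at 111 ± 3.26 and 105 ± 1.52 CPM, and *Dab2* at 73.2 ± 4.53 and 81.2 ± 11.8 CPM.

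Of the 24 response genes, *Fn1*, which encodes fibronectin, had the smallest p. It was at 33.1, 29.5 and 36.4 CPM in Pax7WT and at 47.6, 59.2 and 44.0 CPM in Pax7KR, with no overlap. Its log2 fold change was 0.61 (SE 0.12, 95% confidence interval 0.35 to 0.86), or 52.2% higher, with an adjusted p of 0.445 in edgeR and of 0.00883 in DESeq2. *Klf10*, an early response gene to TGF-beta, was at 69.5, 64.9 and 57.1 CPM in Pax7WT and at 48.5, 58.7 and 48.1 CPM in Pax7KR, and the groups overlapped in 1 library of each genotype (log2 fold change -0.30, SE 0.10; unadjusted p = 0.00783 and adjusted p = 0.992 with edgeR). *Junb*, a subunit of the factor AP-1, was at 2378 ± 615 CPM in Pax7WT and 2437 ± 234 CPM in Pax7KR, and *Col3a1*, a fibrillar collagen gene, at 1346 ± 78.7 and 1333 ± 26.7 CPM. In Pax7WT replicate 2, with the lowest sum of immediate early genes, *Junb*, itself one of those genes, was also at its lowest (1671 CPM).

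**Figure D5:**
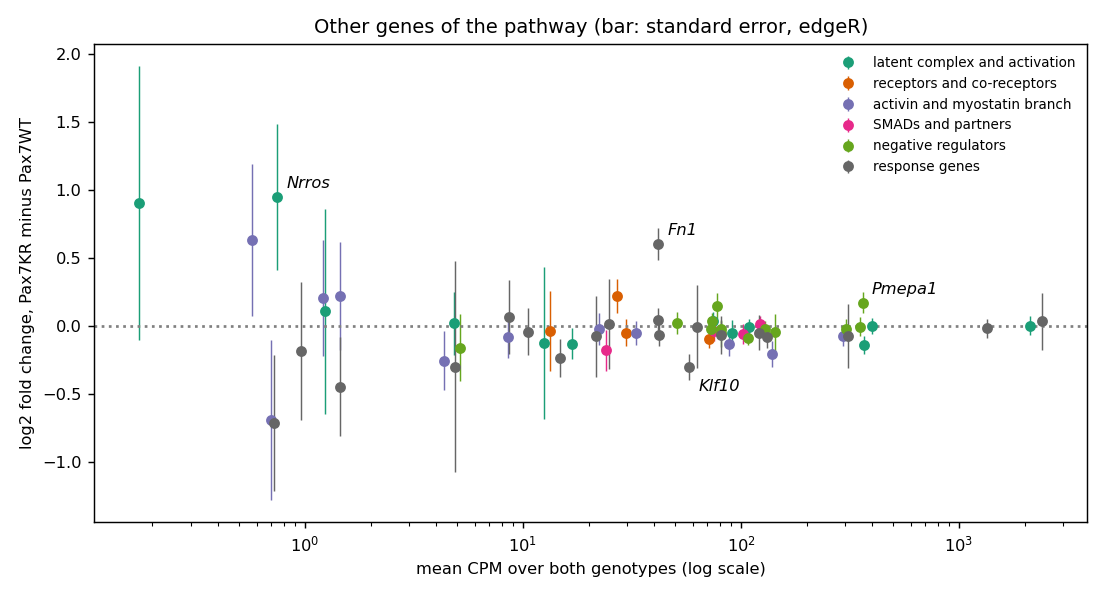
Log2 fold change (Pax7KR minus Pax7WT, edgeR) with its standard error for each of the 64 further genes tested, against the mean level in CPM (log axis), with colours for the roles. *Fn1* (0.61), *Pmepa1* (0.17), *Klf10* (-0.30) and *Nrros* (0.95) are labelled, and bars are longest for genes at the lowest levels.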

How the data were processed

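Paired reads of 6 directional libraries were quantified per transcript by the authors with salmon (version 1.3.0) against GENCODE transcripts of GRCm38 with the genome as decoy, and estimated counts were deposited with no normalization. The authors also deposited TPM, made by the same run from estimated reads and effective transcript lengths. A table of the authors' own genotype comparison (log2 fold changes and p-values) was not used.

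Estimated reads were summed per gene and rounded. Of 140992 transcripts, 139791 (99.15%) were matched by identifier to an earlier GENCODE release of the same build, which gives all coordinates, and the other 1201, with 0.606% of the reads, were left out. The 17152 genes that reached at least 5 reads in at least 2 libraries entered edgeR (version 4.0.16): TMM normalization, robust quasi-likelihood test on genotype, Benjamini-Hochberg adjustment over all of them, cut-off 0.1. CPM use TMM library sizes, and TPM of a gene are summed over its transcripts. Intervals are 95% confidence intervals of the fit. Transcript shares were compared with two-sided exact permutation tests in scipy (version 1.17.1). DESeq2 (version 1.42.0), limma (version 3.58.1), other normalizations and filters, a transcript length offset, a replicate block and leaving out each library were alternatives. The fits were tested on simulated data. Promoter sequences are RefSeq's on GRCm38.p6. From 0 to 4.13% of the 31-base sequences of a member occur in transcripts of other genes.

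The members and lists were chosen with earlier results of these data known. Of each role in the wider list, up to 3 genes with the smallest unadjusted p and up to 3 with the highest mean CPM are named, with any past the cut-off, and for *Tgfb2* the 5 genes most correlated with it. *Acvr1c*, *Gdf11*, *Foxh1*, *Ltbp2*, *Adgre1*, *Cd68*, *Ngfr*, *Scx*, *Dpt*, *Notch3* and *Tek* were named after their values were seen. The 3 samples of a genotype are biological replicates per the series design, and it was not stated whether the replicate numbers mark litters or days.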

Additional observations from a re-analysis of the deposited data

How the results depend on the processing

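*Tgfb2* was lower in Pax7KR under all 16 alternatives, with log2 fold changes of -0.66 to -0.48. As the gene was chosen for its lower level in these same libraries, this direction describes the choice and is not separate evidence. Of the other 9 members, 0 passed the cut-off under every alternative, and *Tgfb1*, *Tgfbr1*, *Smad2* and *Ltbp1* kept their direction throughout. *Tgfbr3* turned to 0.017 with the transcript length offset in edgeR and to 0.018 in DESeq2. Leaving out 1 library gave ranges that cross 0 for *Tgfb3* (-0.051 to 0.021), *Tgfbr2* (-0.074 to 0.010), *Tgfbr3* (-0.059 to 0.038), *Smad3* (-0.17 to 0.085) and *Smad7* (-0.19 to 0.23). Among all genes, 0 calls became 30 with DESeq2, 45 with DESeq2 and the length offset, 157 with no filter, and 1 to 32 with 1 library left out (32 without Pax7KR replicate 3); 0 were called with the length offset in edgeR, RLE or upper-quartile factors, 10 or more reads in every library, no robust shrinkage, limma-voom or a cut-off of 0.05. The cause was not tested. Of the wider list, 1 gene (*Fn1*) was called with DESeq2 and 1 (*Fn1*) with DESeq2 and the length offset, 2 (*Fn1* and *Klf10*) with no filter, and 0 to 1 with 1 library left out (*Fn1* without Pax7KR replicate 3). Of the 9 pairs of neighbours in the order of levels, 6 to 8 had separate ranges, and the means of *Smad2* and *Smad3* changed places without Pax7WT replicate 3 and without Pax7KR replicate 1. The 2 transcript shares whose groups did not overlap became 5 with shares of TPM, and 3 to 5 with 1 library left out, since fewer values then have to separate. Correlations of same-numbered samples of the 2 genotypes were -0.0558 to 0.0447, within the range of differently numbered samples (-0.0848 to 0.0818). With 3 samples per genotype, these values cannot decide whether the numbers pair the samples. A replicate block gave 13 calls among all genes and 0 among these 9 members. Depth limits *Tgfb1* (73 to 180 reads per library) most.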
